A study of Mus musculus with 18 samples.

Results

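Polysome loading after 6 h of lipopolysaccharide (LPS) was measured by comparing polysome-associated with total mRNA of the same lysates of RAW264.7 cells, a mouse macrophage line. The comparison took the 6 libraries labelled as 6 h LPS, 3 of polysome-associated and 3 of total mRNA, from 3 of the 9 lysates and 18 libraries of the series. The other 12 libraries came from cells given vehicle (DMSO), called control here and with no time in the labels, and from cells given 100 nM torin1 for 15 min and then LPS with torin1 for 6 h. LPS was used at 500 ng/mL, no library carried a genetic change, and each replicate number is 1 independent experiment on 1 cell line. Macrophage activation enlarges the lysosome, and the series asked which mRNAs are translated more when these phagocytes are activated.

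An mRNA that is being translated carries several ribosomes at once, and such polysomes sediment faster through a sucrose gradient than free mRNA or single ribosomes. Cycloheximide holds elongating ribosomes on their mRNA while cells are lysed, and the heavy fractions of the gradient are pooled, here those with more than 3 ribosomes. A small part of each lysate was kept as the input, total mRNA. LPS, a bacterial cell wall component, is sensed by Toll-like receptor 4, which turns on NF-kB and interferon regulatory factors and with them cytokine, chemokine and interferon-stimulated genes. Torin1 inhibits the kinase mTOR in both of its complexes. Polysome loading is given throughout as the log2 ratio of a gene's level in polysome-associated mRNA to its level in total mRNA, in CPM. CPM is the counts of a gene scaled to a common library total, after TMM factors adjusted the totals for differences in composition. Both libraries of a lysate were scaled in this way, so loading ranks mRNAs against each other. It does not tell whether the cells translated more mRNA in all. In such bulk samples, fewer cells holding an mRNA and less of it per cell cannot be told apart.

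The LPS total mRNA libraries held 32099800 to 36698363 counts and the LPS polysome libraries 34930909 to 43083107, over 11243 protein-coding genes. Macrophage genes were high in LPS total mRNA, with Lyz2, which encodes lysozyme, at 6786 ± 1005 CPM (SD, n = 3) and Cd14, the LPS co-receptor, at 3401 ± 438. The 11 of 12 macrophage markers in the table summed to 14895 to 16292 CPM, whereas only 2 of 16 markers of other cell types were in it, summing to 1.24 to 1.39 CPM. Lysate 3 stood apart, since the SD of loading over all genes was 0.54 there against 0.80 in lysate 1 and 0.73 in lysate 2. Without experiment 3, 3266 genes were called higher and 2886 lower in the comparison that follows, and without experiment 1 these counts were 2370 and 2275.

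With LPS, 3558 of 11243 genes (31.6%) were higher in polysome-associated than in total mRNA and 3184 (28.3%) were lower, at an adjusted p of at most 0.05 in edgeR's quasi-likelihood test with the lysate as a block. A difference of at least 2-fold was found for 512 of the higher and 556 of the lower genes. The middle of the distribution was at 0.03, and the 10th and 90th percentiles were at -0.78 and 0.83, with a median SE of 0.13. In 8690 genes all 3 lysates had the same sign. The polysome values lay above all total values for 2804 genes (24.9%) and below all of them for 2665 (23.7%).

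Mitochondrial and histone mRNAs stood at the ends of the distribution. All 10 mitochondrially encoded mRNAs in the table were lower, with a median loading of -2.34; these messages are translated by ribosomes inside the mitochondrion. mt-Nd1, a subunit of respiratory complex I, was at 2981, 2607 and 3217 CPM in total mRNA and at 316, 405 and 403 CPM in polysome-associated mRNA. The mitochondrial share of all counts was 1.73% to 1.96% in LPS total mRNA and 0.57% to 0.74% in polysome-associated mRNA, so all 3 lysates moved the same way and the groups did not overlap. At the other end, the 10 highest genes were all replication-dependent histones, short mRNAs without a poly(A) tail that package new DNA. Of 55 histone genes, 49 were higher and 2 lower, with a median of 1.80. Their median was 2.15 and 2.19 in lysates 1 and 2 and 1.07 in lysate 3. Hist1h4k, which encodes histone H4, was at 3.06, 12.6 and 3.62 CPM in total and 26.5, 66.1 and 12.1 CPM in polysome-associated mRNA, a loading of 2.41 ± 0.43 (SE), with groups that overlapped because lysate 2 was higher in both RNA types. Histone genes of 1 class are near-identical, so the split of reads among single members is uncertain.

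mRNAs far more abundant with LPS than in the control were chosen by level. They had a mean of at least 10 CPM over the 6 LPS libraries and at least 8 times the mean of the 6 control libraries, with polysome and total libraries weighted equally so that the choice favours neither. The rule took 147 genes, called LPS-dependent here. Their median level was 102 CPM with LPS and 4.61 CPM in the control. Some were abundant without LPS too, with Slfn4 at 300, Odc1 at 264 and Ccl3 at 261 CPM in control total mRNA. An mRNA with no count in a control library could not be chosen, since the table left it out. The genes just inside the 8-fold limit were Slfn5, Ifi203 and Chac1 and those just outside it were Rffl, Aoah and Cp, with loadings of -0.73, -1.35, 1.301, 0.60, -0.38 and -0.93 in that order. Of the 147 genes, 56 overlap another annotated gene and 18 had fewer than 10 counts in a control library.

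LPS-dependent mRNAs were found on both sides of the scale. Of the 147, 64 (43.5%) were higher in polysome-associated mRNA, 43 (29.3%) were lower and 40 were not called, against 31.6% and 28.3% of all genes. Their median loading was 0.20, and it was 0.23, 0.22 and 0.16 in the 3 lysates. Set against the median of all other genes in the same lysate, the difference was 0.17 ± 0.04 (SD, n = 3) and positive in 3 of 3 lysates, with an exact two-sided sign-flip p of 0.25, the smallest that 3 lysates allow. Without experiment 2 the difference was 0.045 and the median 0.12, over the 160 genes that the rule then took. With 4 times the control as the limit in place of 8, the difference was 0.06 and the median 0.07, over 320 genes. Without the pairing of libraries by lysate, the calls dropped to 21 higher and 11 lower of the 147. A difference of at least 2-fold was rarer, at 9 higher and 7 lower. In 26 of the 147 (17.7%) the polysome values lay above all total values and in 20 (13.6%) below all of them, both smaller shares than over all genes.

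These 147 genes took 7.27%, 7.44% and 6.36% of all counts in the LPS total libraries and 8.02%, 8.51% and 7.14% in the LPS polysome libraries. Their share was thus higher in the polysome library of each of the 3 lysates. In the control it was 0.35% to 0.55% in total and 0.39% to 0.61% in polysome-associated mRNA.

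**Figure D1:**
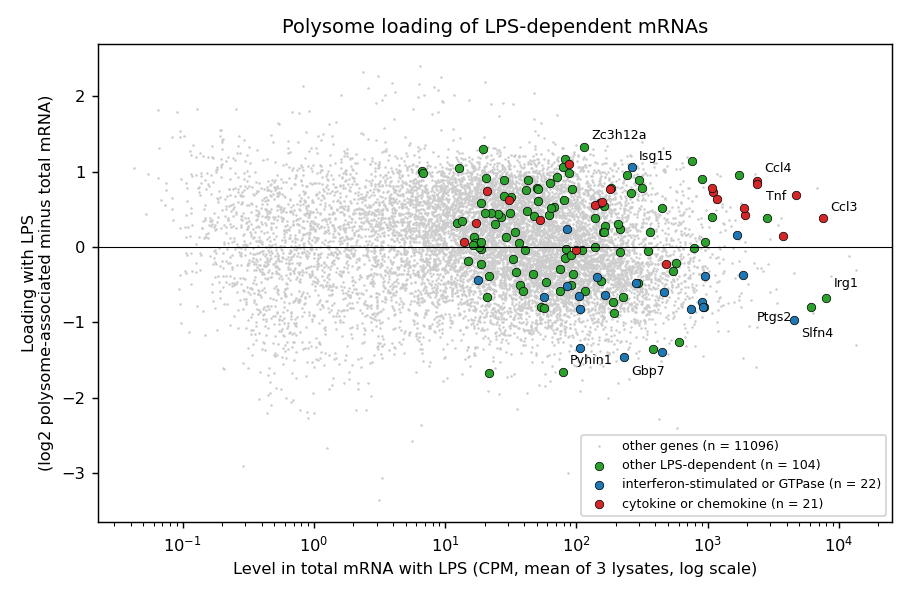
Loading with LPS (vertical, log2 polysome-associated minus total mRNA) against level in LPS total mRNA (horizontal, CPM, mean of 3 lysates, log scale) for 11243 genes. The 21 LPS-dependent cytokines and chemokines (red) lie mostly above 0, the 22 interferon-stimulated genes and GTPases (blue) mostly below it, and the other 104 LPS-dependent genes (green) on both sides.

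Many cytokine mRNAs are short-lived and carry AU-rich elements in their 3′ untranslated region, where repeats of the pentamer ATTTA recruit decay factors such as tristetraprolin. The heptamer TATTTAT was searched on the sense strand of the 3′ untranslated region, with overlapping matches counted, since it is the core of these elements. It stood at least once in 54 of 143 LPS-dependent genes with an annotated region (37.8%) and in 3043 of 10977 genes overall (27.7%), and at least 3 times in 15 (10.5%) and 375 (3.4%). Windows of 29 bases are shown for the 6 LPS-dependent genes with most counts among those with at least 3 heptamers, because the same element occurs here in mRNAs on either side of the loading scale. Coordinates are those of GRCm38 with GENCODE M21 exons, each window lies in the 3′ untranslated region of the last exon, and capitals mark TATTTAT.
Ptgs2, chr1:150105795-150105823, plus strand, exon 10: caTATTTATTTATTTATgtgaagaattta
Tnf, chr17:35199678-35199706, minus strand, exon 4: TATTTATTATTTATTTATTATTTATTTAT
Il1b, chr2:129364807-129364835, minus strand, exon 7: accacttaccTATTTATTTATgTATTTAT
Cxcl2, chr5:90905325-90905353, plus strand, exon 4: ctTATTTATTTATctatgTATTTATTTAT
Il1a, chr2:129300108-129300136, minus strand, exon 7: tttatctatgTATTTATaaataTATTTAT
Ier3, chr17:35822478-35822506, plus strand, exon 2: ccgtgtctaattaaTATTTATgTATTTAT

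Tnf, with 8 heptamers in the whole region, had a loading of 0.84 and Cxcl2, with 7, one of 0.52, whereas Ptgs2, with 6, was at -0.79. Il1b and Il1a had 3 each and loadings of 0.42 and -0.22, neither called, and Ier3 had 4 and a loading of 0.52. Over all genes, median loading was 0.13 in 7934 genes without the heptamer, -0.10 in 2020 with 1 and -0.26 in 1023 with 2 or more. Among LPS-dependent genes the medians were 0.20 (n = 89), -0.02 (n = 29) and 0.42 (n = 25), so the lowest of these was not in the genes with most heptamers. The genes with 2 or more heptamers had a median transcript GC content of 44.8% over all genes and of 52.1% among LPS-dependent genes, and the part of GC content in this difference was not tested.

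Cytokine and chemokine mRNAs lay mostly above the middle. Of 21 LPS-dependent members, 15 (71.4%) were higher in polysomes, none was lower and 6 were not called, with a median loading of 0.60. Over all genes 31.6% were higher and 28.3% lower. As means over lysates, the median of the 21 was 0.60 with LPS, 0.36 ± 0.23 (SD, n = 3) in the control and 0.43 with LPS and torin1. Without the pairing 4 of the 21 were called, all higher. These 21 genes took 2.76%, 2.81% and 2.32% of counts in LPS total mRNA and 3.96%, 4.25% and 3.46% in polysome-associated mRNA, and the lowest polysome share was above the highest total share. Over the full lists, 10 of 17 cytokines (58.8%) were higher and none lower (median 0.54), and 11 of 13 chemokines (84.6%) were higher and none lower (median 0.69). As means over lysates, the medians with LPS and in the control were 0.52 and 0.45 for cytokines and 0.74 and 0.57 for chemokines. Il6, Il12b, Csf2, Ifnb1, Cxcl1 and Cxcl9 are among the list members not analysed here, since genes with no count in any 1 of the 18 libraries were left out of the table.

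Tnf, which encodes the first cytokine of the inflammatory cascade, was at 1921, 2712 and 2534 CPM in total mRNA and at 3788, 5285 and 3787 CPM in polysome-associated mRNA. All 3 polysome values were above all total values, and loading was 0.84 ± 0.14 (SE, adjusted p 0.000161). Ccl4, a chemokine that draws monocytes and T cells, was at 2534, 2409 and 2126 CPM in total and 4256, 4617 and 4115 CPM in polysome-associated mRNA. Its loading of 0.88 ± 0.10 again had groups that did not overlap. Ccl3, a chemokine of the same kind with the most counts in the group, was at 7352, 8535 and 6865 CPM in total and 7731, 12098 and 10204 CPM in polysome-associated mRNA. Its groups overlapped, and its loading of 0.38 ± 0.12 lost its call without lysate 2 (0.32) and without lysate 3 (0.29).

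Ccl9 had 6667, 3997 and 3384 CPM in total and 11477, 5691 and 5851 CPM in polysome-associated mRNA. The polysome value was the higher in each lysate and loading was 0.69 ± 0.13, but the groups overlapped because lysate 1 was high in both RNA types. Ccl7, a monocyte chemoattractant, had the highest loading of the chemokines at 1.10 ± 0.13, with 108, 95.9 and 59.0 CPM in total and 237, 192 and 133 CPM in polysome-associated mRNA. The lowest was Ccl5, at -0.03 ± 0.18, with 104.6, 109 and 81.6 CPM in total against 93.6, 140 and 66.4 CPM in polysome-associated mRNA. Its sign differed between lysates, as the polysome value was the higher only in lysate 2.

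The interleukin-1 genes Il1b, Il1rn and Il1a were not called. Il1b, which encodes the secreted pyrogen, was at 2938, 1157 and 1682 CPM in total and 4344, 1320 and 2387 CPM in polysome-associated mRNA, a loading of 0.42 ± 0.23 that was not called (adjusted p 0.125). Il1rn, the receptor antagonist, was at 0.15 ± 0.12 (adjusted p 0.291), and its total and polysome values in lysate 2 were 3992 and 3996 CPM. Il1a was at -0.22 ± 0.18 (adjusted p 0.297), with 718, 307 and 422 CPM in total and 585, 226 and 443 CPM in polysome-associated mRNA. In none of the 3 did the RNA types separate, and for Il1b and Il1rn lysate 2 had the smallest difference between them. Among cytokines that were not LPS-dependent, Tgfb1, an inhibitory cytokine, was highest at 1.18 ± 0.19, and Il18 was lowest at -0.26 ± 0.16, which was not called.

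**Figure D2:**
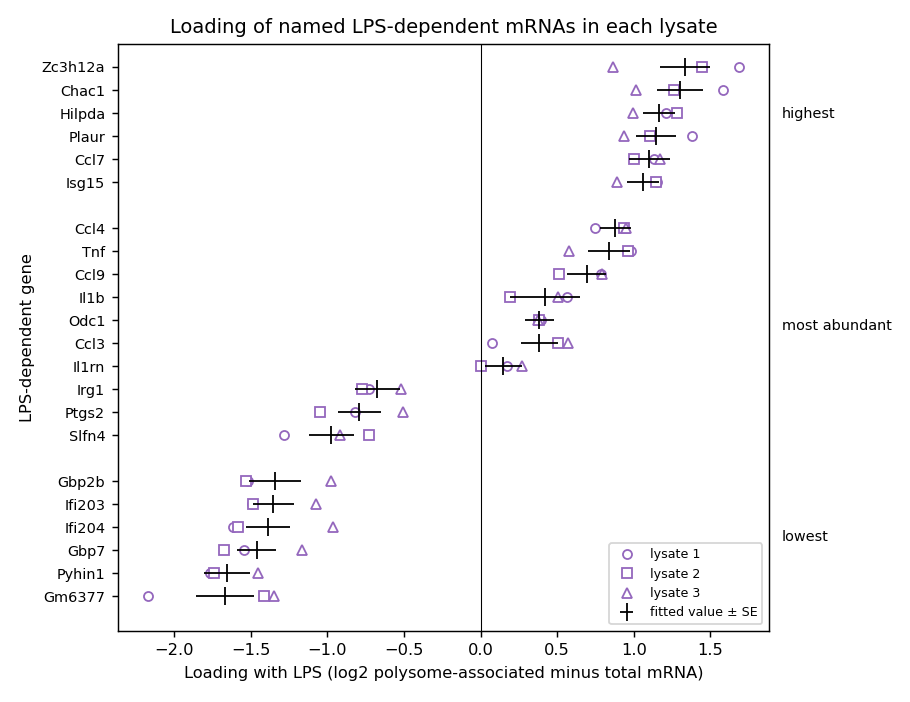
Loading (horizontal, log2) of 22 LPS-dependent genes, the 6 highest, the 10 with most counts in total mRNA and the 6 lowest, with an open symbol for each lysate and the fitted value ± SE as a bar. The 6 lowest lie between -1.67 and -1.34 and the 6 highest between 1.06 and 1.33, and lysate 3 lies nearest 0 in most of them.

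Enzymes of immune metabolism were found on both sides. Of 18 counted, 5 (27.8%) were higher and 8 (44.4%) lower, beside 31.6% and 28.3% of all genes. Their median was -0.11. Irg1 (also called Acod1), which makes itaconate, had the most counts of all LPS-dependent genes in total mRNA, with 8024, 7963 and 8052 CPM in total and 4847, 4658 and 5612 CPM in polysome-associated mRNA. The groups did not overlap, and loading was -0.67 ± 0.15 (adjusted p 0.00148). Ptgs2, the inducible cyclooxygenase that makes prostaglandins, was at 7323, 5663 and 5421 CPM in total and 4149, 2739 and 3826 CPM in polysome-associated mRNA, again without overlap, a loading of -0.79 ± 0.14. Odc1, the first enzyme of polyamine synthesis, went the other way, with 2283, 3626 and 2530 CPM in total and 3001, 4721 and 3279 CPM in polysome-associated mRNA. Its loading was 0.38 ± 0.09 and nearly the same in the 3 lysates, although its groups overlapped. The extremes of the list were Gch1, the first enzyme of tetrahydrobiopterin synthesis, at 0.74, and Cybb, the catalytic subunit of the phagocyte NADPH oxidase, at -0.89. Hmox1, heme oxygenase, was at 0.46, and Slc7a11, the cystine transporter, at -0.79.

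Irg1, Ptgs2 and Slfn4, a Schlafen family gene, were the only genes among the 10 with most counts in total mRNA whose loading was below 0. Slfn4 was at 5362, 4119 and 4187 CPM in total and 2205, 2492 and 2222 CPM in polysome-associated mRNA, a loading of -0.97 ± 0.14. These 3 mRNAs together held 1.81%, 1.61% and 1.64% of counts in total mRNA and 0.99%, 0.91% and 1.06% in polysome-associated mRNA. They were picked for a loading below 0, so the lower share follows from the choice and gives only its size. CPM is not divided by transcript length, so this order is one of reads and not of molecules.

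Of 23 NF-kB subunits and feedback inhibitors of the LPS response, 13 (56.5%) were higher and 4 lower, with a median of 0.30, against 31.6% higher among all genes. Zc3h12a, also known as Regnase-1, a nuclease that degrades cytokine mRNAs, had the highest loading of all LPS-dependent genes. It was at 83.7, 131.2 and 128 CPM in total and 270, 358 and 233 CPM in polysome-associated mRNA, without overlap, a loading of 1.33 ± 0.16 (adjusted p 2.12e-05). Bcl3, a nuclear IkB protein, was next on the list at 1.16, and Rel, an NF-kB subunit, and Tnip3, an A20-binding inhibitor, were lowest at -0.71 and -0.57.

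Of 26 surface receptors and costimulatory molecules, 11 (42.3%) were higher, 2 (7.69%) lower and 13 not called (median 0.27). Over all genes 31.6% were higher and 28.3% lower. Tnfrsf1b, the second TNF receptor, was highest at 0.95, with 2097, 1442 and 1629 CPM in total against 4551, 2914 and 2705 CPM in polysome-associated mRNA, and Cd40, a costimulatory receptor, was at 0.89. Neither overlapped between the RNA types. Msr1, a scavenger receptor, and Cd86, a costimulatory ligand, were lowest at -0.72 and -0.46. Plaur, the urokinase receptor, was at 570, 958 and 748 CPM in total and 1486, 2063 and 1435 CPM in polysome-associated mRNA, a loading of 1.14 ± 0.13 without overlap. It stood at the top of a list of 11 plasminogen activator, serpin, metalloproteinase and acute-phase genes. Of these 11, 5 (45.5%) were higher and 2 (18.2%) lower (median 0.31).

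Other LPS-dependent mRNAs with the highest loadings were Chac1, a glutathione-degrading enzyme of the integrated stress response, at 1.301 ± 0.15, and Hilpda, a lipid droplet protein, at 1.16 ± 0.10. Chac1 had 29.3, 21.9 and 6.84 CPM in total against 88.0, 52.5 and 13.8 CPM in polysome-associated mRNA, so its groups overlapped, whereas those of Hilpda did not. Of 26 early transcription factors, 8 (30.8%) were higher, 4 lower and 14 not called (median 0.17). Of 18 MAP kinase phosphatases and mRNA decay factors, 4 (22.2%) were higher and 3 lower (median 0.03). Over all genes 31.6% were higher. Among the latter Dusp14 and Dusp2, which dephosphorylate MAP kinases, were highest at 1.05 and 0.85, and Hnrnpd, an AU-rich element binding protein, and Zfp36l2, of the tristetraprolin family, lowest at -1.19 and -0.54.

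Interferon-stimulated mRNAs and those of interferon-induced GTPases formed a low group. Of 22 LPS-dependent members, 2 (9.09%) were higher, 18 (81.8%) lower and 2 not called, with a median of -0.61. Over all genes 31.6% were higher and 28.3% lower. As means over lysates, the median of the 22 was -0.58 with LPS, -0.54 in the control and -0.50 with LPS and torin1. Without the pairing 3 of the 22 were called, all lower. These 22 genes took 1.29%, 1.44% and 1.15% of counts in LPS total mRNA and 0.84%, 1.01% and 0.85% in polysome-associated mRNA, with no overlap. Over the full lists, 31 of 55 interferon-stimulated genes (56.4%) were lower and 7 (12.7%) higher (median -0.38). Of 9 GTPases, 8 (88.9%) were lower and none higher (median -0.65). Without the pairing, 7 of the 55 were called, all lower.

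Guanylate-binding proteins attack the membranes of intracellular bacteria and parasites. Gbp7 was the lowest of them, with 252, 269 and 174 CPM in total and 86.6, 84.4 and 78.0 CPM in polysome-associated mRNA, a loading of -1.46 ± 0.13 (adjusted p 4.41e-06). Gbp2b was at -1.34 ± 0.17, with 118.2, 128.5 and 74.7 CPM in total and 41.2, 44.5 and 38.0 CPM in polysome-associated mRNA. Neither gene overlapped between the RNA types, although members of this family share sequence and their reads may be split uncertainly. Ifi204, an interferon-induced DNA sensor of the PYHIN family, was lowest on the interferon list, at 544, 505 and 289 CPM in total and 177, 169 and 148 CPM in polysome-associated mRNA, a loading of -1.39 ± 0.14.

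Other PYHIN genes stood beside it. Pyhin1 was at -1.65 ± 0.15, with 72.4, 104 and 58.8 CPM in total and 21.3, 30.96 and 21.5 CPM in polysome-associated mRNA, and Ifi203, which overlaps Mndal on the same strand, was at -1.35 ± 0.14. Of 8 PYHIN genes in the table, a group picked after their values were seen, 7 were lower and none higher, with a median of -1.31. Gm6377, which lies within Sh3bgrl, had the lowest value of all LPS-dependent genes, -1.67 ± 0.19, with 41.9, 8.63 and 14.6 CPM in total and 9.27, 3.22 and 5.73 CPM in polysome-associated mRNA, so that its groups overlapped.

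The highest interferon-stimulated genes went the other way. Isg15, a ubiquitin-like modifier, was at 243, 270 and 276 CPM in total and 541, 599 and 512 CPM in polysome-associated mRNA, a loading of 1.06 ± 0.10 (adjusted p 6.92e-06) without overlap. Bst2, also called tetherin, which holds budding virus at the cell surface, was next at 0.90.

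Not every call above held when the libraries were not paired by lysate. Among the most abundant, Irg1, Slfn4, Ccl9, Ccl3 and Odc1 were then at -0.67, -0.98, 0.71, 0.40 and 0.38, none of them called. Isg15, Chac1, Bst2, Dusp2 and Dusp14 stayed at 1.06, 1.41, 0.92, 0.88 and 0.97 but were not called, nor were Slc7a11, Tnip3, Cd86 and Zfp36l2, at -0.82, -0.60, -0.46 and -0.51.

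LPS-dependent mRNAs lay on both sides of the scale in the other treatments too, although their counts were few in the control. The 147 genes had a median loading of 0.26 in the control, with 55 called higher and 35 lower, and of 0.14 with LPS and torin1, with 50 higher and 37 lower. Without the 18 that had fewer than 10 counts in a control library, the medians were 0.24 with LPS, 0.25 in the control and 0.17 with torin1. Tnf was at 0.61 in the control, 0.84 with LPS and 0.67 with torin1, and Ccl4 at 0.74, 0.88 and 0.63. Irg1 was at -0.29, -0.67 and -0.58, Slfn4 at -1.05, -0.97 and -1.11, and Gbp7 at -1.49, -1.46 and -1.25. Genes with at least 10 CPM with or without LPS, binned by the LPS response of their level, had median loadings of 0.08 above a log2 fold of 6 (n = 26), 0.20 from 3 to 6 (n = 121), -0.03 from 1 to 3 (n = 620), 0.03 from -1 to 1 (n = 7255), 0.17 from -3 to -1 (n = 613) and 0.13 below -3 (n = 12). Loading did not run in 1 direction with the size of the LPS response.

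Loading moved with base composition and with coding length. Across genes, which are not independent replicates, Spearman's rho with the GC content of the transcript was 0.59 (n = 11094), and 0.60 within the LPS-dependent genes (n = 145). By lysate it was 0.60, 0.61 and 0.42. Median loading was -0.62 in transcripts of at most 40% GC and 0.76 in those above 60%. Among LPS-dependent genes it was -0.47 at up to 45% GC (n = 42, 9 higher and 27 lower) and 0.65 above 55% (n = 30, 18 higher and 1 lower). Median loading was 0.62 in reading frames of up to 100 codons and -0.41 in those above 1600 codons, a difference of 1.03. A short frame has room for fewer ribosomes. The number of upstream start codons made no such steps, with medians of 0.05, 0.02, 0.03 and 0.06 at 0, 1, 2 and 3 or more.

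**Figure D3:**
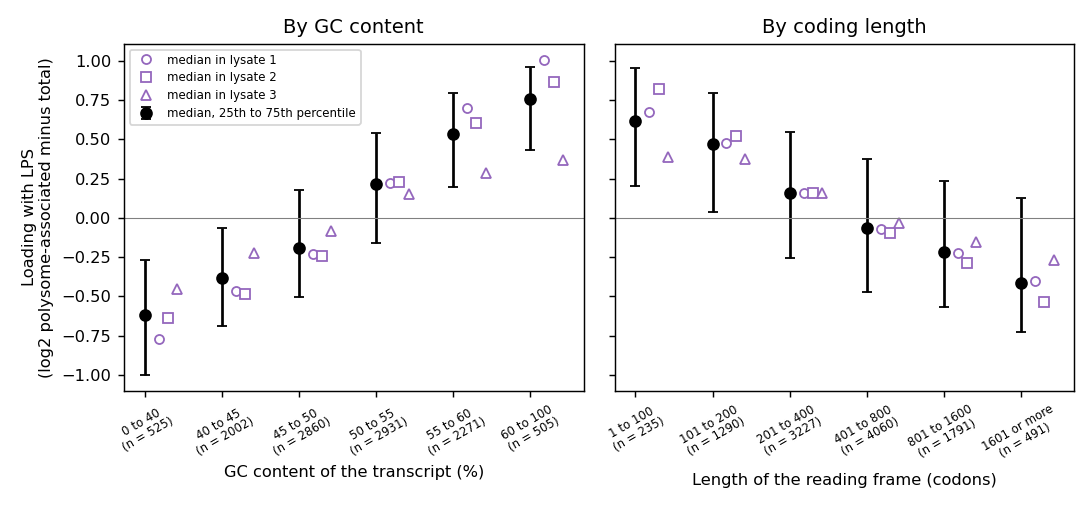
Loading with LPS (vertical, log2) in bins of transcript GC content (percent) and of coding length (codons). Filled points mark the median, bars run from the first to the third quartile, and open symbols mark the median in each lysate. Medians climb from -0.62 to 0.76 with GC content and fall from 0.62 to -0.41 with coding length.

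A fit in which each lysate's loading was first corrected for GC content and transcript length, an alternative added after the data were seen, gave other values. The LPS-dependent genes, 145 with features, then had a median of 0.15, with 63 higher and 37 lower, and the difference from the other genes of a lysate was 0.08. The 21 LPS-dependent cytokines and chemokines, of which 20 had features, then had a median of 0.43, with 13 higher and 1 lower. The low group of 22, of which 21 had features, was at -0.30, with 2 higher and 14 lower. The PYHIN genes were at -0.67 with 6 of 8 lower, and all 10 mitochondrial mRNAs were lower, at -1.64. Of 54 histone genes with features, 38 were then higher and 1 lower (median 1.09). Tnf at 0.65, Ccl4 at 0.43, Isg15 at 0.53, Irg1 at -0.47 and Gbp7 at -0.88 were still called, with values nearer 0 than before. Higher members no longer outnumbered lower ones in this fit for early transcription factors, with 4 higher and 7 lower of 26 (median -0.03). The same held for antigen presentation genes, with 6 higher and 6 lower of 24 (median -0.05). Before the correction 30.8% and 37.5% of these lists were higher, beside 31.6% of all genes. Single calls were lost for Ccl3 (0.17), Ptgs2 (-0.17), Slc7a11 (-0.13), Cd86 (-0.11) and Rel (-0.12), while Serpinb2, a serpin, and Tnip3 passed from called lower to 0.02 and 0.01, and Il1rn became called at 0.43. The part of GC content and length in the values of single genes was not tested otherwise.

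Ribosomal and mitochondrial housekeeping mRNAs were loaded above the middle. Of 80 cytosolic ribosomal protein genes, 57 (71.2%) were higher and 2 (2.5%) lower (median 0.55), beside 31.6% and 28.3% of all genes. Of 76 mitochondrial ribosomal protein genes, 50 (65.8%) were higher and 7 (9.21%) lower (0.53). Of 79 nuclear-encoded respiratory chain subunits, 68 (86.1%) were higher and 2 (2.53%) lower (0.73). After the correction for GC content and length these counts were 26 and 15, 36 and 9, and 44 and 4. The shares higher were then 32.5%, 47.4% and 55.7%, beside 31.5% of all genes in that fit. The shares lower were 18.8%, 11.8% and 5.06%, beside 22.4%. The cytosolic ribosomal protein genes were thus near the shares of all genes, with a median of 0.14 against 0.06. A list of translation factors and other mRNAs, drawn up as known for a terminal oligopyrimidine (TOP) tract at their start, went the other way. Of its 19 members, 10 (52.6%) were lower and 4 (21.1%) higher (median -0.26). Whether each member starts with such a tract was not checked. Pabpc1, the poly(A)-binding protein, was lowest at 1759, 1598 and 2169 CPM in total and 555, 514 and 1001 CPM in polysome-associated mRNA, a loading of -1.47, and Ppia, cyclophilin A, and Eif3f, an initiation factor subunit, were highest at 1.12 and 0.67. By PCR across the gradient, the study saw no major change in the polysome distribution of Ppia with LPS or torin1. It cites earlier reports of Ppia translation as insensitive to LPS or mTOR complex 1.

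Lysosomal mRNAs, the subject of the series, lay moderately above the middle. Of 63, 31 (49.2%) were higher and 6 (9.52%) lower, beside 31.6% and 28.3% of all genes. The median was 0.28, with values of 0.29, 0.26 and 0.26 in the 3 lysates. As means over lysates, it was 0.27 with LPS, 0.27 in the control and 0.20 with LPS and torin1. After the correction 34 (54%) were higher and 5 (7.94%) lower, beside 31.5% and 22.4% of all genes. The highest were Smpd1, acid sphingomyelinase, and Atp6v0e, a V-ATPase subunit, both at 1.13. The lowest were Atp6v1h and Atp6v1a, subunits of the cytosolic part of the same pump, at -0.83 and -0.77. Ctsd, the protease cathepsin D, was at 1768, 1912 and 2030 CPM in total and 2841, 2663 and 2834 CPM in polysome-associated mRNA, a loading of 0.55 without overlap, which was 0.18 and no longer called after the correction. Lamp1, the major lysosomal membrane protein, was at 0.08 ± 0.10, with 992, 964 and 915 CPM in total and 1008, 928 and 1102 CPM in polysome-associated mRNA. By PCR across the gradient, the study saw Lamp1, Atp6v1h, Atp6v1d and, at 6 h, Ctsd shift toward heavy polysomes with LPS, less so with torin1. It reported that its sequencing of pooled fractions mostly missed these shifts. Loading with LPS alone does not measure such a change from the control. Of 24 antigen presentation genes, 9 (37.5%, beside 31.6% of all genes) were higher and 3 lower (median 0.24). After the correction these counts were 6 and 6 (median -0.05). Psmb9, an immunoproteasome subunit, was at 0.89 and H2-Ab1, an MHC class II chain, at -1.27. H2-Ab1 lost its call without lysate 1 (-0.69) and without lysate 2 (-1.29). Psmb9 and H2-Ab1 were not called without the pairing (0.91 and -1.34).

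**Figure D4:**
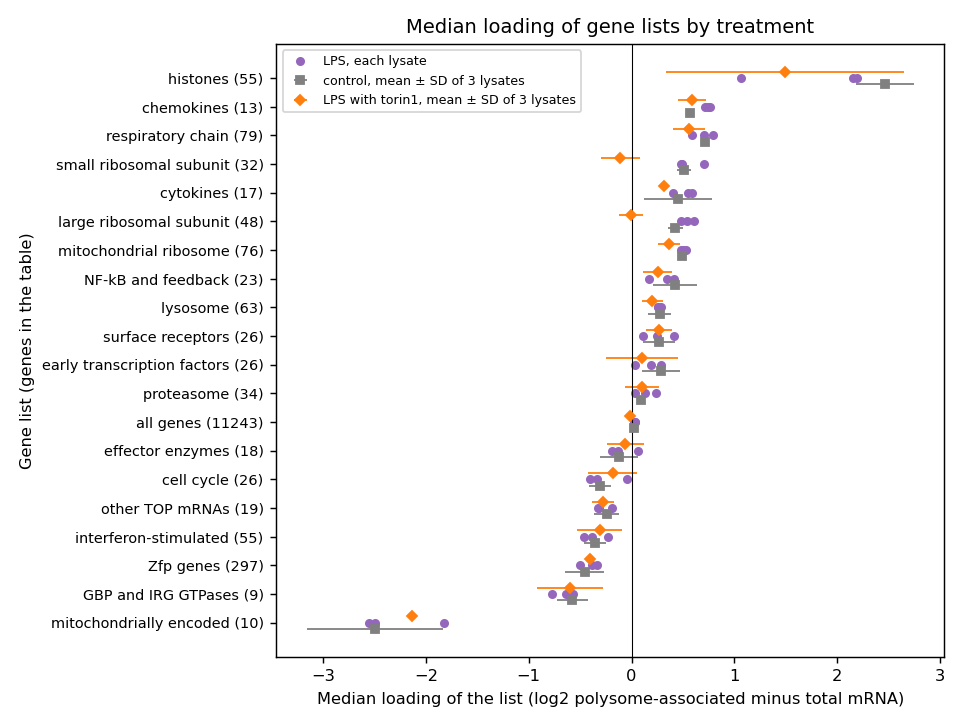
Median loading (horizontal, log2) of 20 groups of genes, with a point for each LPS lysate and the mean ± SD of 3 lysates for the control and for LPS with torin1. Histone, chemokine and respiratory chain mRNAs lie highest and GTPase and mitochondrial mRNAs lowest with LPS, and both ribosomal protein groups lie near 0 with torin1.

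Loading with LPS was then compared with the other treatments in the same fit, which pairs the libraries of a lysate but not the lysates of an experiment. Against the control no gene was called (0% of 11243, smallest adjusted p 0.591), 164 had an unadjusted p under 0.05, and DESeq2 called 1, Tmem132a, at -1.54. The median SE of this difference was 0.18.

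Against LPS with torin1, 4 genes were called (0.0356% of 11243), all loaded more without torin1 and all ribosomal proteins of the small subunit or copies of them. Rps18 was at 354, 329 and 311 CPM in total and 589, 461 and 483 CPM in polysome-associated mRNA with LPS, and at 332, 362 and 298 against 277, 319 and 225 CPM with torin1. Polysome values were thus above total in all 3 LPS lysates and below it in all 3 torin1 lysates. The difference in loading was 0.90 ± 0.13 (SE, adjusted p 0.0474). Rps19 had loadings of 0.42, 0.27 and 0.39 with LPS and -0.52, -0.58 and -0.79 with torin1, a difference of 0.99 ± 0.13 (adjusted p 0.0361). Rps27rt, a retrocopy of Rps27, had 0.93, 1.22 and 1.36 against 0.24, -0.11 and 0.14 (1.08 ± 0.17, adjusted p 0.0474), and Rps18-ps3, a copy of Rps18, differed by 1.21 ± 0.19 (adjusted p 0.0474).

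In each of the 4 genes the lowest LPS lysate was above the highest torin1 lysate. The genes were picked for this difference in the same lysates, so the separation adds no support. Control loadings of Rps18 were 0.43, 0.55 and 0.42, close to those with LPS. Rps18-ps3 and Rps27rt are named as copies of Rps18 and Rps27, so the split of reads between copy and parent is uncertain. Leaving out experiment 1 or 3 left none of the 4 called, as did relative log expression factors (smallest adjusted p 0.067), and library totals only left 1. No gene was called without the pairing by lysate, whereas DESeq2 called 27, all loaded more without torin1 and 22 of them in the ribosomal protein lists. Those outside these lists were Tpt1, Cox7a2l, Gm11808, Rps18-ps3 and Rps27rt.

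The first bases of Rps18 and Rps27rt are shown because a TOP tract, a cytosine followed by an unbroken run of pyrimidines at the cap, is known for making translation depend on mTOR. They are the first 20 bases of the RefSeq transcripts on GRCm38.p6, and capitals mark the run of pyrimidines.
Rps18, chr17:33955646-33955665, minus strand: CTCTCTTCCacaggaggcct
Rps27rt, chr9:114982720-114982739, minus strand: CTTTCCggcggtgacgacct

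A start with C and at least 4 more pyrimidines was found in 14 of 60 ribosomal protein genes with a listed start (23.3%) and in 250 of 8568 genes in all (2.9%). None of the 3 listed starts of Rps19 began with such a run, which says only that these letters are not at those annotated positions.

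Over all 80 ribosomal protein genes, Rps18 and Rps19 included, an unadjusted p under 0.05 was found for 67 (83.8%), all loaded more without torin1, and not for the other 13. Of all genes, 303 (2.70%) had one, of which 262 were loaded more and 41 less without torin1. The median loading of the ribosomal protein genes was 0.55 with LPS, 0.46 in the control and -0.05 with LPS and torin1, as means over lysates. That of the 19 translation factors and other mRNAs listed as known for a TOP tract, Ppia among them, was -0.28 with LPS, -0.24 in the control and -0.28 with LPS and torin1. Of these 19, 3 had an unadjusted p under 0.05 and more loading without torin1, and none was called. The part of TOP tracts in the difference was not tested. Of the 147 LPS-dependent genes, 1 had an unadjusted p under 0.05 against LPS with torin1. Against the control 7 had one (4.76%, 6 loaded more and 1 less with LPS), beside 1.46% of all genes, and none was called.

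**Figure D5:**
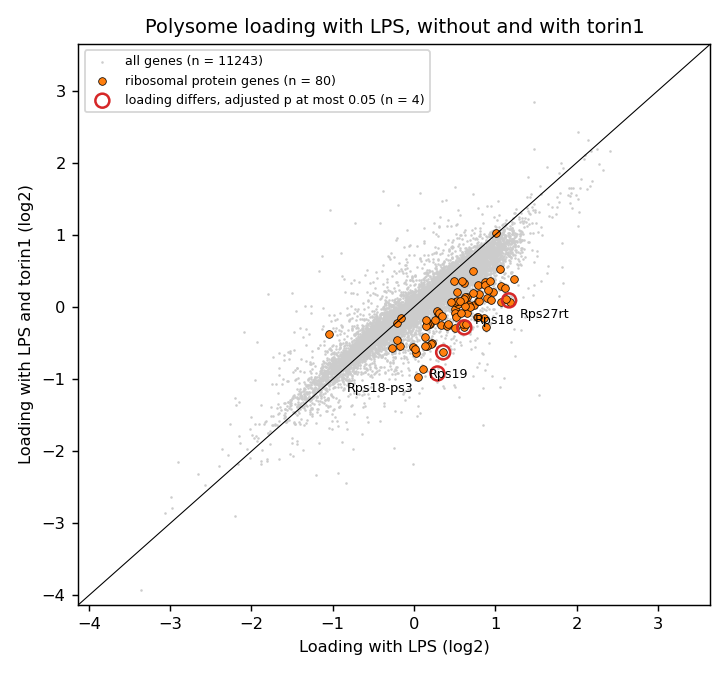
Loading with LPS and torin1 (vertical, log2) against loading with LPS (horizontal, log2), with a point for each of 11243 genes and a line where both are equal. The 80 ribosomal protein genes (orange) lie below the line nearly throughout, and the 4 called genes are circled.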

How the data were processed

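Per the study's methods, the authors sequenced stranded total RNA after ribosomal RNA removal and ran a nextflow pipeline in which Hisat2 placed the reads on GRCm38 and featureCounts summed them over Ensembl genes. Tool releases and the strand setting of the counting are not given in the sources used here. The deposited values are raw counts per gene in 18 libraries; genes without a count in any 1 library had been removed by the authors, and only protein-coding genes were kept. Since reads of non-polyadenylated RNA were kept, histone mRNAs could be counted.

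Counts were scaled by TMM factors and fitted with edgeR 4.0.16 (R 4.3.3; limma 3.58.1), with the lysate as a block and RNA type within treatment, over all 18 libraries (27800983 to 47725557 counts each). A gene was called at a Benjamini-Hochberg adjusted p of at most 0.05 over 11243 genes. Loading per lysate used edgeR's log2 CPM with a prior count of 0.5. Within a treatment, each replicate number is 1 lysate, from which both libraries were made. Deviations from group means correlated at 0.39 to 0.65 between the 2 libraries of a lysate (9 pairs) and at -0.49 to 0.01 between different lysates. Replicates differed by more than counting noise (chi-squared per degree of freedom at least 62.2). The fits were tested on simulated counts. Transcript features came from GENCODE M21 for 11094 genes, matched by symbol (10742) or RefSeq older symbol (352).

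Named genes were the 10 highest and 10 lowest called genes with 1 sign in the 3 lysates and at least 10 counts in each LPS library, the 10 LPS-dependent genes with most counts, their 6 highest and 6 lowest, the 2 highest and 2 lowest of each list, and genes the study followed by PCR. Slc7a11, Hmox1, Cd40 and Tmem132a are among those outside this rule and were chosen after their values were seen. The groups and lists were chosen with earlier results of these data known. Alternatives were DESeq2 1.42.0, other scalings and filters, no block, each replicate left out, other limits for LPS-dependent genes and, added later, a loess correction (span 0.3) for GC content and length and a pairing of loading by experiment.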

Additional observations from a re-analysis of the deposited data

Results flagged for a closer look

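The difference in loading between LPS and LPS with torin1 passed the test in 4 genes of the small ribosomal subunit, by edgeR's quasi-likelihood test of the difference itself. It was 0.90 for Rps18, 0.99 for Rps19, 1.21 for Rps18-ps3 and 1.08 for Rps27rt, on the log2 scale. All 3 LPS lysates were above all 3 torin1 lysates in each of them, which follows largely from the choice of these genes by the same values. None of the 4 was called with relative log expression factors (smallest adjusted p 0.067), and 1 was with library totals only. Groups of 3 libraries were too small for a check of outlying samples.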

How the results depend on the processing

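The count of genes called for loading with LPS stayed within 1.5 times the reported one in every setting except that of higher genes without replicate 1, which was 2370. Leaving out each replicate gave 4645 to 6152 genes in all, 2370 to 3266 higher and 2275 to 2886 lower, and allowing an adjusted p of 0.25 gave 8647. The replicate block by lysate came from the design and mattered for many single genes: without it 4841 genes were called, 2578 higher and 2263 lower, and 34 of 160 named genes lost their call with none reversed. The correction for GC content and length gave 3493 higher and 2484 lower of 11094 genes, and 712 genes called in the fit without it had the other sign. It turned 5 named genes: Serpinb2 to 0.0163, Tnip3 to 0.0109, Rps12 to -0.60, Atp6v1d to 0.46 and Gapdh to -0.42. It also lowered the difference in loading between the shortest and longest reading frames to 0.49, which was 0.87 to 1.22 with replicates left out. The difference between the LPS-dependent mRNAs and the other genes was 0.05 to 0.22 with replicates left out, 0.06 with a limit of 4 times the control and 0.08 after the correction, and their median was 0.12 to 0.23 with replicates left out. Genes called against the control numbered 1 with DESeq2 and 0 with loading paired by experiment, an alternative added after the data were seen. Deviations of loading correlated at -0.16 to 0.38 between lysates of the same replicate number, above 0.1 in 5 of 9 pairs. Against LPS with torin1 there were 0 without the replicate block, 0 with relative log expression factors, 1 with library totals only, 2 with at least 10 counts in all libraries, 25 at an adjusted p of 0.25, 27 with DESeq2, 21 after the correction, 17 (all higher, 14 in the ribosomal protein lists, and the 4 reported ones among them) with loading also paired by experiment, and 0 to 18 with replicates left out, the 18 being without replicate 2. The causes of these shifts were not tested. At 3 lysates a group and a median SE of 0.18, small differences between treatments could not be detected.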

Other observations

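Several lists outside the comparisons above are given here, beside 31.6% higher and 28.3% lower over all genes with LPS. mRNAs with an iron-responsive element, a hairpin by which iron regulatory proteins control translation or decay, had 3 of 7 lower and 1 higher (median -0.22). The ferritin chains were lowest, with Fth1 at 2236, 2635 and 2201 CPM in total and 1160, 1186 and 1026 CPM in polysome-associated mRNA (-1.07) and Ftl1 at -0.79. Of 17 selenoprotein mRNAs, 9 were higher and 2 lower (median 0.28), with Msrb1, a methionine sulfoxide reductase, at 1.21 and Selm at 1.08, the latter not called without the pairing by lysate. As means over lysates, the medians with LPS and in the control were -0.40 and -0.34 for the iron-responsive mRNAs. For the selenoprotein mRNAs they were 0.30 and 0.52.

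Of 26 mitosis genes, 12 were lower and 3 higher (median -0.21). Cenpe, a kinetochore motor with a long reading frame, was at 182, 154 and 183 CPM in total and 38.2, 35.3 and 59.5 CPM in polysome-associated mRNA, a loading of -1.998, whereas Plk1, a mitotic kinase, was at 0.43. Of 297 genes named as Zfp zinc fingers, 143 were lower and 36 higher (median -0.43). As means over lysates, the medians with LPS and in the control were -0.26 and -0.31 for the mitosis genes. For the Zfp genes they were -0.41 and -0.46. Of 29 cytoskeleton genes, 8 were higher and 4 lower (median 0.08), and Actb was at -0.12 and not called. Of 20 mRNAs known for upstream reading frames or the integrated stress response, 8 were higher and 5 lower (median 0.11), with Oaz1, which inhibits ornithine decarboxylase, at 1.32 and Eprs, a tRNA synthetase, at -0.94. The other lists were the endoplasmic reticulum genes (11 of 28 higher, 9 lower, median -0.07), constitutive proteasome subunits (14 of 34 higher, 7 lower, 0.17), other initiation factors (12 of 40 higher, 15 lower, 0.01), macrophage markers (9 of 11 higher, 1 lower, 0.46) and the genes followed by PCR (8 of 18 higher, 1 lower, 0.17). Over all genes 31.6% were higher and 28.3% lower. Near these shares lay the endoplasmic reticulum genes (39.3% and 32.1%), the initiation factors (30% and 37.5%) and the stress response mRNAs (40% and 25%). After the correction for GC content and length, the proteasome had 12 higher and 13 lower (-0.03), the cytoskeleton 8 and 8 (-0.06), the endoplasmic reticulum genes 13 and 4 (0.11), the initiation factors 14 and 11 (-0.03) and the iron-responsive mRNAs 1 and 3 (0.02). Both markers of other cell types in the table were not called.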
